A study of Mus musculus with 7 samples.

Results

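A set of 10 foregut epithelium genes, of the 21475 genes named on the array, was followed in pools of microdissected posterior second heart field (pSHF) with and without *Shh*, the gene for the Sonic hedgehog ligand. The genes were chosen by name, with earlier results of these data known. They were *Cdh1*, *Krt8*, *Krt18*, *Krt19*, *Cldn4*, *Cldn6* and *Cldn7*, which epithelia in general express, the secreted protease inhibitor gene *Spink3*, and the homeobox genes *Nkx2-1* and *Nkx2-3*. All probes carrying one of these names were read, which gave 11 of the 41174 probes, 2 of them for *Krt8* and 1 for each of the other 9 genes. The -/- group was 4 pools of *Shh* mutant embryos and the +/+ group 3 pools of wild-type embryos, all at E9.5 on a mixed background of C57 and CD-1 (the labels write C56B/6) and all from crosses of *Shh* heterozygotes. Embryos were genotyped before pooling, the mutation was germline, so every tissue of the embryo lacked the gene, and every array read a pool and not a single embryo. The dissected piece held the dorsal mesenchymal protrusion, the lateral plate mesenchyme around it and the attached foregut, so epithelial and mesenchymal RNA were measured together. By the study's account, the heart, the dorsal part of the lateral plate mesenchyme and the neural tube were left out of this piece. Whether a genotype held fewer epithelial cells or less RNA per cell cannot be told apart in such pools.

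The foregut is a tube of endodermal epithelium that lies against the splanchnic mesoderm of the pSHF and is a source of *Shh* for it. E-cadherin, claudins and simple-epithelium keratins mark the tube along its whole length, so their mean level serves here as a measure of how much epithelium each pool held. Within the foregut, *Nkx2-1* is switched on only where the thyroid and the lungs arise from the ventral foregut, and *Nkx2-3* is expressed in pharyngeal endoderm and in gut mesoderm. None of the general epithelial genes is particular to endoderm: surface ectoderm uses them too, and keratins 8, 18 and 19 are also known in mesothelium.

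The RefSeq promoter table (GRCm38.p6) held 7 of the 10 genes. The 250 bases upstream of the annotated start are shown for *Nkx2-1* and for the epithelial genes *Krt8*, *Krt18* and *Cldn4*, because *Nkx2-1*, *Krt8* and *Cldn4* were the genes with an entry at an unadjusted p under 0.05 between genotypes, and *Krt18* encodes the filament partner of *Krt8*. Capitals mark the E-box CACCTG, or CAGGTG where it lies on the other strand, the site that repressors of the SNAI and ZEB families bind.
Nkx2-1, chr12:56536909-56537158, minus strand: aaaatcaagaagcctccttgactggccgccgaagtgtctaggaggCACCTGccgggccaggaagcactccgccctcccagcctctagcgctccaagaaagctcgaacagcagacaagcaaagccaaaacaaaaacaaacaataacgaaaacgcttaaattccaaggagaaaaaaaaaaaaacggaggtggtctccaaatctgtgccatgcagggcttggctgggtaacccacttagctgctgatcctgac
Krt8, chr15:102004343-102004592, minus strand: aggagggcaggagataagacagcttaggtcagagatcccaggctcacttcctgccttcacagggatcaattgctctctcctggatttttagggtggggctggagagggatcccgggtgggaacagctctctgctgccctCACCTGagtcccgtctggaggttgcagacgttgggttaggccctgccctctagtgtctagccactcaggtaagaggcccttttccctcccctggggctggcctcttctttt
Krt18, chr15:102027966-102028215, plus strand: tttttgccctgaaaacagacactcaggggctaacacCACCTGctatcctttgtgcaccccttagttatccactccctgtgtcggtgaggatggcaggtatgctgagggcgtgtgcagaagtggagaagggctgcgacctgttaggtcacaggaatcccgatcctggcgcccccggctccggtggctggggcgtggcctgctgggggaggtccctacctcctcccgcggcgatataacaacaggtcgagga
Cldn4, chr5:134946935-134947184, minus strand: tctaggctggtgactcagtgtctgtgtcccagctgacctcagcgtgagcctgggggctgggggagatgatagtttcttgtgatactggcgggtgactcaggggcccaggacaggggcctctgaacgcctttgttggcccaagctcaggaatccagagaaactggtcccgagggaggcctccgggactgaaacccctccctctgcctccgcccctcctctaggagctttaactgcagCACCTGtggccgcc
Each of these windows held 1 E-box, which began 205 bases before the start in *Nkx2-1*, 111 in *Krt8*, 214 in *Krt18* and 14 in *Cldn4*. A window of 6 of the 7 genes held it, *Nkx2-3* being without, against 17.2% of all 32851 windows of this length. *Cldn7* had more than 1 window, and 1 of them held none. The count is of genes and the share is of single windows, so they are not of like kind. The letters GACCACCCA or TGGGTGGTC, the motif of the GLI factors that carry the Hedgehog signal, were in a window of 0 of the 7 genes and in 0.225% of all windows. No binding was measured, so these are matches of letters only.

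The 7 arrays were compared for signal. Between 60.0% (mutant pool 2) and 70.6% (wild-type pool 4) of probes lay well above background, and no spot was saturated. Before normalization the median signal ran from 86.4 (wild-type pool 1) to 145 (mutant pool 3). Normalization aligned the arrays, so their medians after it, from 6.16 to 6.34 on the log2 scale, are no measure of quality. Pools with the same number (1, 3 and 4) were hybridized on one slide. Mutant pool 2 lay alone on slide 2, and its label says that this array may have leaked. Mutants took array position 1 and wild types position 2 on each slide, so position and genotype cannot be told apart. *Shh* itself was at 9.67, 9.39, 9.22 and 9.32 in mutant pools 1 to 4 and at 10.72, 10.74 and 9.98 in wild-type pools 1, 3 and 4 (normalized log2 signal). The mutants were all below the wild types, at 47.4% of their level, with a limma adjusted p of 0.0653, and the sources used here do not say whether this probe lies in the deleted part. The pSHF genes *Isl1*, *Tbx5* and *Osr1* were well above background on all 7 arrays.

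All 11 probes were well above background on all 7 arrays and were tested. With limma and Benjamini-Hochberg adjustment over all 23127 probes, 0 of 11 passed an adjusted p of 0.05, where 0.558% of all probes did (129 probes, 0.264% higher and 0.294% lower in the mutants). Slide as a fixed block gave 11 probes and as a random block 182. The fixed block gives mutant pool 2, alone on its slide, no weight in the genotype difference. At an unadjusted p under 0.05 stood 4 of the 10 genes (*Krt8*, *Cldn4*, *Spink3* and *Nkx2-1*), against 7.96% of all probes. The pools of the genotypes did not overlap for 3 of the 10 genes, *Nkx2-1* below and *Spink3* and *Krt8* above, where 8.34% of all probes were so separated (4.78% with the mutants above and 3.56% below). Because the genes were chosen with earlier results of these data known, neither count measures an excess over all probes. Of the 10 genes, 6 were higher in the mutants and 4 lower. Their median log2 difference was 0.07, and over all probes it was 0.02 with 55.4% higher. Without mutant pool 2 the count was again 0 of 11.

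**Figure D1:**
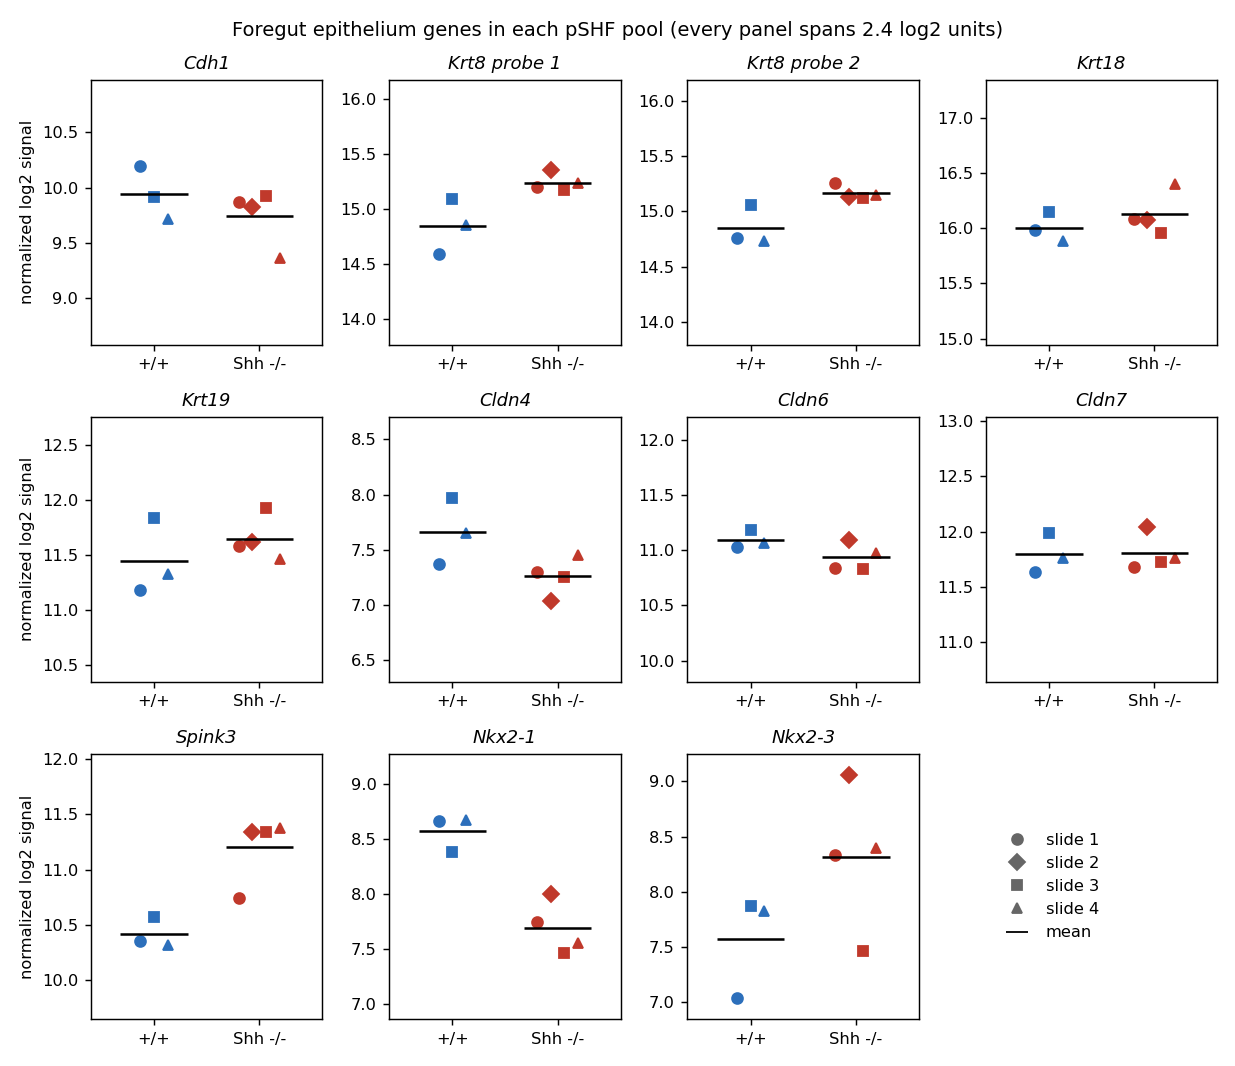
Normalized log2 signal (vertical axis, every panel spanning the same width of scale) of each probe in the wild-type pools (+/+, blue) and the *Shh* mutant pools (-/-, red). Symbols give the slide, bars the mean of a genotype, and red lies wholly above blue for both *Krt8* probes and *Spink3* and wholly below it for *Nkx2-1*.

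*Cdh1*, the gene for E-cadherin, the adhesion molecule that holds epithelial cells together, was read by a probe spotted 10 times on each array (chr8:109193812-109193871, plus strand, mm9 as in the array annotation). Its level was 9.87, 9.82, 9.93 and 9.36 in mutant pools 1 to 4 and 10.19, 9.92 and 9.71 in wild-type pools 1, 3 and 4. The genotypes overlapped, and pool 4 was the lowest of each. The difference was −0.20 ± 0.17 (SE) on the log2 scale, limma adjusted p = 1.00, with a 95% interval from −0.59 to 0.20. The spots within an array spread by a median SD of 0.07, less than the SD between pools of 0.26 in the mutants and 0.24 in the wild types.

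Keratins 8 and 18 pair in the filaments of simple epithelia, and keratin 19 joins them in many ducts and tubes. The first *Krt8* probe (chr15:101827346-101827405, minus strand) was at 15.20, 15.35, 15.17 and 15.24 in the mutants and at 14.59, 15.09 and 14.86 in the wild types. The second (chr15:101827214-101827273) was at 15.25, 15.13, 15.13 and 15.15 against 14.76, 15.06 and 14.73. For both, every mutant pool lay above every wild-type pool, and the mutants were closer to each other (SD 0.08 and 0.06, n = 4) than the wild types were (SD 0.25 and 0.18, n = 3). The differences of 0.39 ± 0.14 (SE) and 0.31 ± 0.12 (SE) missed the limma threshold (adjusted p = 0.390 and 0.469), and on slide 3 they were only 0.08 and 0.07. *Krt18* (chr15:101862341-101862400, plus strand) was at 16.09, 16.07, 15.96 and 16.40 in the mutants and 15.98, 16.15 and 15.89 in the wild types. Its genotypes overlapped, with a difference of 0.12 ± 0.14 (SE) and a 95% interval from −0.18 to 0.43. *Krt19* (chr11:100002392-100002451, minus strand) was at 11.58, 11.62, 11.92 and 11.46 against 11.18, 11.83 and 11.33, also overlapping. Both genotypes had their highest *Krt19* value on slide 3, and the difference was 0.20 ± 0.18 (SE).

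Claudins form the strands of tight junctions. *Cldn4* (chr5:135421347-135421406, minus strand) was at 7.30, 7.04, 7.25 and 7.45 in the mutants and at 7.37, 7.97 and 7.65 in the wild types. Mutant pool 4 lay above wild-type pool 1, so the genotypes overlapped, and the difference of −0.40 ± 0.16 (SE) had an unadjusted p of 0.0353 and a limma adjusted p of 0.540. The pair on slide 3 differed most, by −0.72, against −0.07 on slide 1 and −0.20 on slide 4. Without wild-type pool 3 the *Cldn4* difference was −0.25, and without mutant pool 2 it was −0.33. *Cldn6*, a claudin of embryonic epithelia, read by chr17:23819027-23819086 (plus strand), was at 10.84, 11.10, 10.83 and 10.98 against 11.03, 11.18 and 11.07. The difference was −0.16 ± 0.11 (SE), and its pairs were −0.18, −0.35 and −0.09 on slides 1, 3 and 4. *Cldn7* (chr11:69780780-69781089, plus strand) was the most even of the 10 genes between genotypes, at 11.68, 12.04, 11.72 and 11.76 against 11.63, 11.99 and 11.76. The span of 310 bases for a probe of 60 bases places this probe across a splice junction. The *Cldn7* difference was 0.01 ± 0.14 (SE), with a 95% interval from −0.30 to 0.32, and its sign turned under some alternatives.

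*Spink3* encodes a secreted inhibitor of trypsin-like proteases, made in digestive tract epithelium and pancreas. Its probe (chr18:43887802-43887858, minus strand) was at 10.74, 11.35, 11.34 and 11.38 in the mutants and at 10.36, 10.57 and 10.32 in the wild types. Mutant pools 2, 3 and 4 lay within 0.04 of each other, mutant pool 1 was lower, and all were above the wild types. The mean was 1.73-fold higher in the mutants, a log2 difference of 0.79 ± 0.17 (SE), with a limma adjusted p of 0.113. Within slides 1, 3 and 4 the mutant pool was higher by 0.38, 0.77 and 1.06. Without mutant pool 1 the difference was 0.94 and passed at a limma adjusted p of 0.0277, the one array whose removal led to a call for *Spink3*. Genes of liver precursors differed in the same direction: all 10 genes of a hepatoblast list were higher in the mutants, 3 of them past the threshold. The level of that list, the mean of its genes after centring each on its mean over the arrays, ran from 0.08 to 0.52 in the mutants and from −0.64 to −0.27 in the wild types, and mutant pool 1 was the lowest of the mutants there too. Otherwise the order of the pools within a genotype differed. Wild-type pool 4 was the lowest of the wild types for *Spink3* and the highest for the list. The highest mutant was pool 4 for *Spink3* and pool 2 for the list. No marker of the list was at background, and the part of these cells in the *Spink3* signal was not tested.

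*Nkx2-1*, the homeobox factor of the thyroid and lung fields, had the largest difference of the 10 genes and the smallest p. The probe was spotted 10 times on each array (chr12:57633119-57633178, minus strand), with a median SD between spots of 0.05. It was at 7.75, 8.00, 7.47 and 7.55 in mutant pools 1 to 4 and at 8.66, 8.38 and 8.67 in wild-type pools 1, 3 and 4. The genotypes did not overlap, and the highest of the lower mutants was the possibly leaked array 2. The means were 7.69 ± 0.24 (SD, n = 4) and 8.57 ± 0.16 (SD, n = 3), so the mutants held 54.4% of the wild-type level, with a 95% interval of the log2 difference from −1.23 to −0.53. The log2 difference of −0.88 ± 0.15 (SE) had an unadjusted p of 0.000297, and its limma adjusted p of 0.0518 missed the threshold of 0.05. It passed 0.05 under 6 of 20 alternatives, among them SAM at a q of 0.0261 and slide as a random block at an adjusted p of 0.0349. SAM is the test named in the study's methods, but here it was run in own code and on another set of probes. The study's own thresholds on q and on fold were stricter than this one, and with the values found here *Nkx2-1* met neither. With slide as a fixed block the adjusted p was 0.0639. The pairs were even, at −0.91, −0.91 and −1.12 on slides 1, 3 and 4, and without mutant pool 2 the difference was −0.98. *Nkx2-1* was well above background in all 4 mutant pools.

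*Nkx2-3* (chr19:43689699-43689757, plus strand) was the most scattered of the 10 genes. It was at 8.34, 9.06, 7.47 and 8.40 in the mutants and 7.04, 7.87 and 7.82 in the wild types. Mutant pool 3 was below 2 wild-type pools, so the genotypes overlapped, and the difference of 0.74 ± 0.35 (SE) had a limma adjusted p of 0.699. The pairs disagreed in sign, at 1.30, −0.40 and 0.57 on slides 1, 3 and 4.

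**Figure D2:**
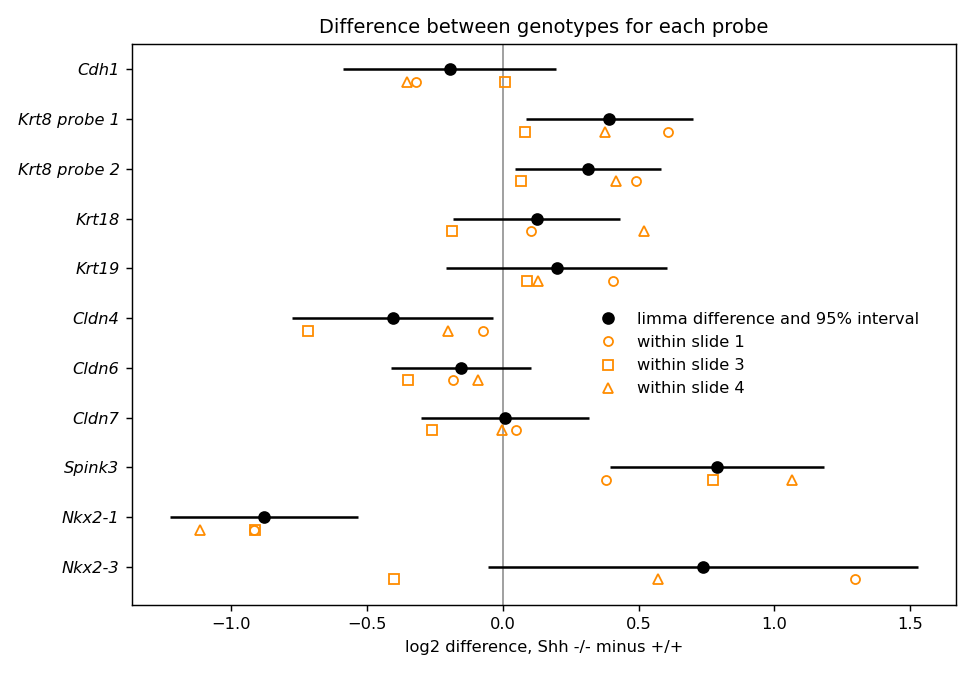
Log2 difference between mutant and wild-type pools (horizontal axis) for each probe: black points and lines are the limma estimate with its unadjusted 95% interval over 4 and 3 arrays, open symbols the difference within each shared slide. *Nkx2-1* lies at −0.88 with its 3 slides between −1.12 and −0.91, and *Nkx2-3* has slides on both sides of 0.

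The general epithelial genes give the measure of epithelial content. A list of 24 epithelial genes outside the 10, chosen by name, had 22 that were tested. Of these, 8 were higher and 14 lower in the mutants, with a median of −0.07, and 0 passed the limma threshold (2 had an unadjusted p under 0.05). They ran from −0.25 for *Grhl2*, an epithelial transcription factor, to 0.46 for *Dsp*, the gene for the desmosome protein desmoplakin, which heart muscle also uses. The epithelial level of a pool, the mean of these genes after centring each on its mean over the arrays, was −0.02, 0.08, 0.00 and −0.04 in mutant pools 1 to 4 and −0.11, 0.09 and 0.01 in wild-type pools 1, 3 and 4. The genotypes overlapped, and their means differed by 0.00, against an SD between pools of a genotype of 0.08. The 2 genes with an unadjusted limma p under 0.05, *Dsp* among them, were both higher in the mutants. They pull this difference of means above the median of −0.07. The 7 general epithelial genes among the 10 had 4 higher and 3 lower, a median of 0.01 and pool levels from −0.03 to 0.04 in the mutants and from −0.11 to 0.19 in the wild types.

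These genes were also read relative to this level. The level differed by 0.00 between genotype means, so subtracting it could barely move a genotype difference. The values below are therefore no separate support for the differences. After subtraction of each pool's epithelial level, *Nkx2-1* was at −0.30, −0.14, −0.60 and −0.47 in the mutants and at 0.70, 0.22 and 0.59 in the wild types, with no overlap and a difference of −0.88. *Spink3* and both *Krt8* probes stayed above the wild types in every mutant pool, with differences of 0.79, 0.39 and 0.31. *Cldn6* had all mutant pools below the wild types once the level was subtracted (−0.17 to 0.02 against 0.05 to 0.13). Of all probes, 6.78% were separated after the same subtraction, 3.79% with the mutants above and 2.99% below. With the epithelial level as a covariate, the limma adjusted p was 0.0781 for *Nkx2-1* and 0.131 for *Spink3*.

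**Figure D3:**
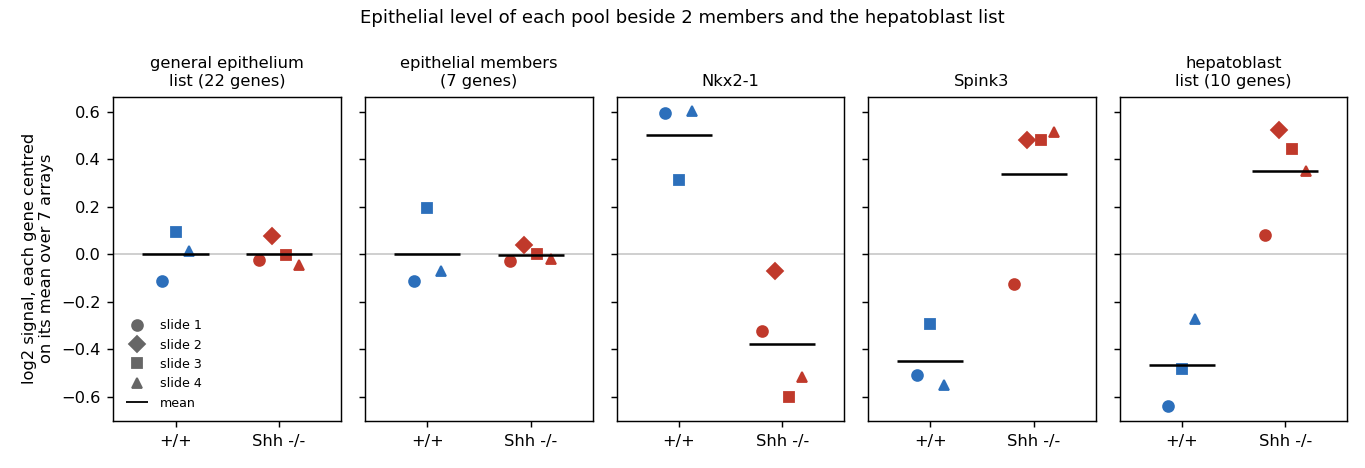
Level of each pool on the log2 scale, each gene centred on its mean over the 7 arrays, for the 22 tested genes of the epithelium list, the 7 general epithelial genes, *Nkx2-1*, *Spink3* and the hepatoblast list (blue +/+, red -/-, symbols the slide, bars the mean). The first panel pair stays within −0.11 and 0.19 in both genotypes, and the other panels separate the genotypes without overlap.

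Lists of neighbouring cell types were read beside the epithelial genes. Among 11 tested regulators of the foregut endoderm, 4 were higher and 7 lower in the mutants (median −0.03), and 2 passed, both lower. These were *Pax1* (−3.01 ± 0.48 SE, limma adjusted p = 0.0424, 0.123 with slide as a fixed block) and *Pax9* (−2.55, limma adjusted p = 0.0356, 0.0543 with the block). Both are known in pharyngeal pouches. The cells that gave their signals in these pools were not resolved, so the differences cannot be assigned to endoderm. *Pax9* entered the test through the wild types, in which all 3 pools were well above background, against 1 of 4 mutant pools, so the size of its difference rests on mutant signals near background. The mean level of this list was −0.29 to 0.15 in the mutants and 0.16 to 0.22 in the wild types, without overlap. *Pax1* and *Pax9*, by far its largest differences, pull this mean down, so it does not stand for the list as a whole. Of the 11 genes, 4 had all mutants above the wild types and 3 all below, where 4.78% and 3.56% of all probes were so separated. The largest higher value of this list was 0.84 for *Hnf4a*, a factor of liver and visceral endoderm, which did not pass. Of the lung and thyroid bud list, 5 of 10 genes were tested and 0 passed, 2 higher and 3 lower (median −0.03), from −0.43 for *Foxp2* to 0.56 for *Fgf10*, the mesenchymal growth factor of lung budding. The other 5 genes did not enter the test, so this median is no measure of the thyroid and lung fields.

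The 10 hepatoblast genes had a median of 0.80, and *Alb*, *Ttr* and *Fgb*, which encode plasma proteins of the liver, rose by 1.22, 0.91 and 0.82 (limma adjusted p = 0.0494, 0.0319 and 0.0494). With slide as a fixed block these adjusted p were 0.0892, 0.103 and 0.121. *Ahsg*, another plasma protein gene, had the largest difference at 1.61 and did not pass (limma adjusted p = 0.0572, 0.0391 with slide as a random block, under which *Rbp4*, a retinol carrier, passed too at 0.0468). *Afp*, a marker of liver precursors and yolk sac endoderm, differed by 0.17 with overlapping genotypes. In surface ectoderm, 4 of 9 tested genes were higher and 5 lower (median −0.22), and *Tcfap2c*, an ectoderm transcription factor, fell by 1.18 (limma adjusted p = 0.0166, 0.0655 with the block). The ectoderm keratin gene *Krt14* had the largest higher value of that list at 0.39, and it did not pass.

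Further sources of keratin transcripts were read. Mesothelium and proepicardium genes were higher in 8 of 9 (median 0.47, 0 past the threshold), up to 0.83 for *Wt1*, the transcription factor that marks mesothelium (limma adjusted p = 0.0608, 0.0394 with slide as a random block), and down to −0.07 for *Aldh1a2*. Their mean level was 0.03 to 0.43 in the mutants and −0.33 to −0.11 in the wild types, without overlap, as for *Krt8*. Among the mutants, pool 3 was the highest for this list and the lowest for both *Krt8* probes. Among the wild types, pool 3 was the highest for the list and for both probes. The part of mesothelium in the *Krt8* signal was not tested. Cardiomyocyte genes were higher in all 9 (median 0.24, 0 past the threshold), from 0.01 for *Myl7* to 1.24 for *Myl2*, with levels from −0.71 to 0.64 in the mutants and from −0.60 to 0.14 in the wild types. All 9 genes of each list were well above background on all arrays. *Myl7* had a mean of 17.1 in both genotypes, although the dissection left out the heart. The source of this signal was not tested. In the mesoderm list, 7 of 12 genes were higher, up to 0.53 for *Hlx*, and *Foxf2*, a forkhead gene of gut mesoderm, fell by 2.43 (limma adjusted p = 0.00216). No gene of this list had all mutants above the wild types, and 4 had all below, *Foxf2*, *Osr1* (−0.88), *Foxf1a* (−0.80) and *Isl1* (−0.43). Over all probes these shares were 4.78% above and 3.56% below. Separation was not particular to this list: the hepatoblast list had 8 of 10 genes above and 0 below, surface ectoderm 0 of 9 above and 2 below, and the epithelium list 1 of 22 above and 1 below. The 4 Hedgehog genes were all lower in the mutants, from −1.02 for *Gli1* to −2.83 for the antagonist gene *Hhip* (limma adjusted p = 0.00127), which alone passed. With slide as a random block *Shh* (0.0464) and *Gli1* (0.0446) passed too.

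**Figure D4:**
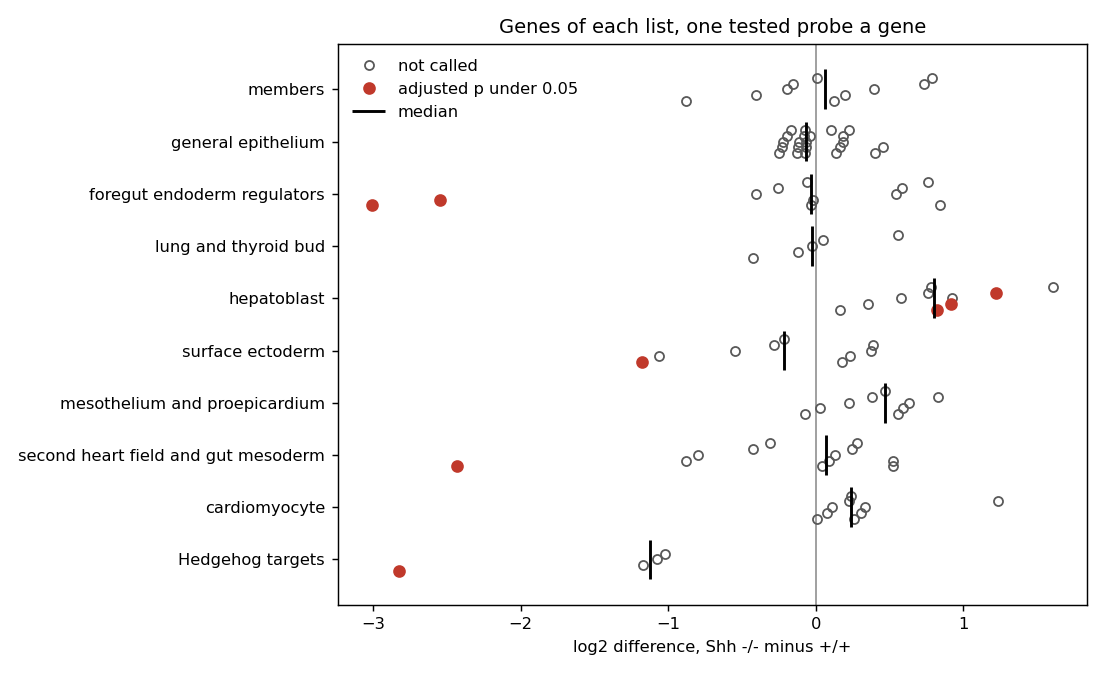
Log2 difference between mutant and wild-type pools (horizontal axis) for each tested gene of the 10 foregut epithelium genes (top row) and of the other lists, 1 probe a gene. Red points passed a limma adjusted p of 0.05, bars are medians; the epithelium list lies between −0.25 and 0.46 and the hepatoblast list between 0.17 and 1.61.

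The keratin, claudin and *Nkx2* families were read in full. Of 41 other keratin genes, 17 were tested and 0 passed the limma threshold (4 at an unadjusted p under 0.05), with 7 higher and 10 lower and a median of −0.04. They ran from −1.06 for *Krt5*, the keratin of basal layers of stratified epithelia (adjusted p = 0.0536), to 0.54 for *Krt23*. Of 18 other claudin genes, 11 were tested and 0 passed (4 at an unadjusted p under 0.05). Here 8 of 11 were lower, with a median of −0.20, from −1.13 for *Cldn11* (adjusted p = 0.0687) to 0.04 for *Cldn5*, the claudin of endothelium. The 3 tested genes of the 5 other *Nkx2* genes were all lower, by 0.16 to 0.46 on the log2 scale, and 0 passed (1 at an unadjusted p under 0.05).

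The correlations among the 10 genes over the 7 pools were of both signs. The Pearson r was −0.87 between *Spink3* and *Nkx2-1*, −0.86 between *Krt8* (second probe) and *Nkx2-1* and 0.80 between *Krt8* (first probe) and *Spink3*, and after removal of the genotype means these were −0.30, −0.41 and 0.35. *Krt8* (first probe) had an r of 0.81 with *Nkx2-3*. The *Krt8* probes had an r of 0.88 with each other, *Krt8* (first probe) and *Krt18* 0.48, *Cdh1* and *Krt18* −0.66, and *Cldn6* and *Cldn7* 0.68. The pools share the genotype difference, and after removal of the genotype means the last pair had an r of 0.91, *Krt8* (first probe) with *Cldn7* 0.86 and *Cdh1* with *Krt18* −0.60. The genes outside the 10 whose pattern was most like the mean of the 7 general epithelial genes over the 7 arrays were *Nxf3*, *Tnfrsf10b*, *Scarb1*, *Slc25a31* and *2410018C20Rik* (r from 0.91 to 0.97). Those most like *Nkx2-1* were *Trim2*, *Rassf4*, *Col2a1*, *4933404M02Rik* and *Nrcam* (r from 0.97 to 1.00), lower in the mutants by 0.27 to 0.69 on the log2 scale, none past the threshold. These are the highest coefficients among all genes tested, over 7 arrays, and describe likeness only.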

How the data were processed

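RNA of pSHF pools was hybridized to 7 single-colour Agilent mouse arrays (design annotated on mm9). The authors' deposited scan files give signals and local background as intensity from Agilent Feature Extraction 10.5.1.1 (submitters' processing notes). The authors' deposited normalized values are log2, with array medians from 5.50 to 9.93, and served as an alternative only. Mean signals were corrected by normexp on 153 negative control spots (offset 50), outlier spots (155 to 206 an array) were left out, and VSN (own code, 7 iterations, trimming share 0.9) gave log2 values, averaged per probe. Probes were tested if they carried a gene name and every array of a genotype, mutant or wild type, was well above background (23127, for 14894 genes). Tests used limma 3.58.1 in R 4.3.3 (with the package data.table, version 1.17.8), Benjamini-Hochberg over all probes tested, genotypes unpaired. The scripts were tested on simulated data. Figures used matplotlib 3.10.9 in Python 3.11.15.

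Genes were read by their brightest tested probe. Named were all probes of the 10 genes, and of each list the genes past the threshold and the largest difference in each direction, and the 5 genes most correlated with the epithelial mean and with *Nkx2-1*. Genes of the lists given as checks of tissue or chosen for a contrast (*Shh*, *Isl1*, *Tbx5*, *Osr1*, *Foxf1a*, *Rbp4*, *Afp*) were added after their values were seen. The genes and lists were chosen with earlier results of these data known. Replicate numbers mark a shared slide, and same-slide deviations from the genotype means correlated at 0.192, 0.239 and 0.0329. Whether pools came from separate litters is not given in the sources used here, so p-values measure the spread between these pools. Alternatives were other scalings and background corrections, the authors' values, other filters, SAM (own code), a variance trend, slide as fixed or random block, the epithelial level as covariate, and each array left out. The number of arrays limits the precision.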

Additional observations from a re-analysis of the deposited data

Results flagged for a closer look

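*Spink3* in mutant pool 1 stood apart from the other mutant pools: it was at 10.74, and the other mutant pools were at 11.34 to 11.38, a gap of 0.943 of the whole range of the group, above Dixon's 95% critical value. This was 1 of 12 values examined in the mutant group, and chance marks about 5% of such groups.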

How the results depend on the processing

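Of the 11 probes, 0 passed in the analysis as reported, and 1 passed (*Nkx2-1*) under quantile normalization (adjusted p = 0.0475), no background correction (0.0435), the interquartile range filter (0.0460), SAM (0.0261), a variance trend (0.0412) and slide as a random block (0.0349). With each array left out in turn the limma count was 0 to 1, the 1 being *Spink3* without mutant pool 1. The replicate block (slide as a fixed block) left 0, and with it *Nkx2-1* was at −0.98 (limma adjusted p = 0.0639). As mutant pool 2 is alone on its slide, the differences under this block equal those without that pool, so the 2 alternatives are not independent. Over its 20 alternatives *Nkx2-1* ran from −1.49 to −0.77, with adjusted p from 0.0261 to 0.934, and *Spink3* from 0.16 to 0.94. The count over all probes (129) was 56 with scaling to the 75th percentile, 33 without the filter on dim probes, 261 with SAM, 11 with the replicate block, 182 with slide as a random block, and 12 (without mutant pool 3) to 136 (without mutant pool 1) with an array left out, among them 14 without wild-type pool 1, 30 without wild-type pool 3, 35 without wild-type pool 4 and 37 without mutant pool 2. The calls named for *Pax1*, *Pax9*, *Alb*, *Ttr*, *Fgb* and *Tcfap2c* were lost with the replicate block, and *Hhip* and *Foxf2* kept theirs (limma adjusted p = 0.00764 for both). In the authors' values 0 probes passed under limma (28 at an unadjusted p under 0.05), and 0 after each array was set to a common median (1038), an alternative added after seeing the data. The authors' arrays are not on a common median: the median of all probes was −0.54 there, and the epithelial level differed by −0.60, *Krt19* by −0.43 and *Cldn7* by −0.60. The *Cldn7* difference was also below 0 with no background correction (−0.0371), quantile normalization (−0.0405), scaling to the 75th percentile (−0.0294) and the replicate block (−0.0717), and it ran from −0.0717 without mutant pool 2 to 0.105 without wild-type pool 3, being −0.0714 without wild-type pool 1 and −0.00709 without wild-type pool 4. The cause was not tested. In the list of epithelial genes 0 passed under every alternative run.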
